A study of Mus musculus with 5 samples.

Results

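β-Catenin ChIP-seq peaks were examined at the genes for β-catenin itself and for 3 proteins of the complex that destroys it. The members were the peaks whose summit lay in 1 of 4 mm9 windows, fixed by position: Ctnnb1 on chromosome 9 (120790000 to 120920000), Axin1 on chromosome 17 (26220000 to 26390000), Apc on chromosome 18 (34330000 to 34540000) and Gsk3b on chromosome 16 (38030000 to 38300000). They held 17 of the 44750 deposited peaks: 9 of 16069 for CHIR99021 with anti-FLAG, 5 of 15947 for CHIR99021 with streptavidin and 3 of 12734 for DMSO with streptavidin.

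The cells were V6.5 mouse embryonic stem cells with a knock-in at Ctnnb1 (the Ctnnb1-Biotin-3xFLAG line, named Ctnnb1-BioFLneo;BirA in the protocol), so all 3 libraries came from cells whose own Ctnnb1 locus was edited. They were grown in serum and LIF on DR4 feeder cells, which were reduced by letting them settle on gelatin before chromatin was made. Treated cells received CHIR99021, a GSK3 inhibitor, at 3 µM by the treatment labels, although the extraction protocol writes 3 mM. The time was 16 hours by the sample labels and 24 hours by the series text, and DMSO was the vehicle. Each of the 3 groups was 1 library, so replicate error could not be measured for any value below, and no ChIP from untagged cells was analysed here. The DMSO library is labelled streptavidin, but its run was named for FLAG. Its peaks were called with a MACS shift (the value d, an estimate of fragment length) of 30 bp, against 185 bp for CHIR99021 anti-FLAG and 214 bp for CHIR99021 streptavidin, so peak numbers, lengths and folds of the DMSO list are not on the scale of the other lists. The CHIR99021 libraries had 16100920 unique tags by anti-FLAG and 11934863 by streptavidin. For the DMSO library no tag totals are given in the file header, and its depth is not known.

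Without a Wnt signal, β-catenin is held in a cytoplasmic destruction complex. AXIN1 is the scaffold of that complex, APC binds β-catenin within it, and GSK3β phosphorylates the amino terminus of β-catenin, which marks it for ubiquitination and degradation by the proteasome. When GSK3 is inhibited, β-catenin accumulates, enters the nucleus and binds chromatin chiefly through the TCF/LEF factors. Some genes of the pathway are known Wnt targets, Axin2 being the usual example, while Axin1 is usually described as expressed independently of the signal.

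No mm9 annotation was used, so no peak was assigned to a promoter, exon or intron, and a peak in a window may lie nearer to another gene than to the one the window is named for. The RefSeq table, built on GRCm38.p6, gives gene lengths of 27108 bp for Ctnnb1, 64595 bp for Axin1, 101894 bp for Apc and 157084 bp for Gsk3b. The genes would fill 20.9%, 38.0%, 48.5% and 58.2% of their windows, in that order. The nearest protein-coding genes on either side in that table were Rpl14 and Ulk4 for Ctnnb1, Mrpl28 and Pdia2 for Axin1, and Epb41l4a and Srp19 for Apc.

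To show the sequence at which a TCF/LEF factor could be looked for at the gene starts, the 250 bases before the start were read for Ctnnb1 and Gsk3b, the members matched in the RefSeq promoter table (Axin1 and Apc were not). Both lie on the plus strand of GRCm38.p6, Ctnnb1 at chr9:120933150-120933399 and Gsk3b at chr16:38088751-38089000. These positions belong to another build than the peaks and cannot be set against them. Capitals mark the core of the TCF/LEF motif, CTTTG or its reverse CAAAG.
Ctnnb1: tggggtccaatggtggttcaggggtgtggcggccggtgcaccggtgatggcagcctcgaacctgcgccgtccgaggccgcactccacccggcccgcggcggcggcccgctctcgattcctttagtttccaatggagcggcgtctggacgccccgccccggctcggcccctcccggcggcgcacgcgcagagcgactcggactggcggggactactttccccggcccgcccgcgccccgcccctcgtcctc
Gsk3b: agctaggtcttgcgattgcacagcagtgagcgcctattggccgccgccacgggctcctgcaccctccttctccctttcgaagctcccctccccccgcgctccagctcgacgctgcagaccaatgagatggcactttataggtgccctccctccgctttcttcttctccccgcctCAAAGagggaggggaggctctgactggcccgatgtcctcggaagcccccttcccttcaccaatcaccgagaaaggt

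Neither sequence held the longer motifs CTTTGAT or CTTTGAA on either strand. Of 32851 RefSeq promoter entries, 3.21% held the first and 4.46% the second in the same 250 bases. The core alone, searched after the longer motifs had been read and contained in both of them, occurred in 48.6% of entries. Gsk3b had it once, starting at base 175 of the printed sequence, and neither of the 2 Ctnnb1 entries had it. The printed sequences were 74.8% G and C for Ctnnb1 and 62.0% for Gsk3b, against a median of 52.4% over all entries. These are properties of the letters only and say nothing of whether a factor was bound.

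Ctnnb1 had the most peaks of the 4 windows, and nearly all came from 1 capture. Anti-FLAG called 5 peaks with 252 tags in all, streptavidin called 1 peak with 22 tags, both under CHIR99021, and DMSO had none. The anti-FLAG summits lay at 120797405, 120805363, 120828309, 120842241 and 120890819, spread over most of the window. In the order of position they held 27, 39, 62, 85 and 39 tags. The 1 streptavidin summit, at 120805403, lay 40 bp from the second of them.

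The anti-FLAG peak at 120842241 (120841563 to 120842732) had the highest p score of the 9 anti-FLAG members. This score, the MACS p-value on a scale of 10 times −log10 on which 50 was the authors' cutoff, reached 125.69. With 85 tags, this peak was among the 16.6% of the anti-FLAG list with at least as many tags. Its fold enrichment over the local background was 3.79, and 99.2% of the list had a fold at least as high. The peak at 120828309 resembled it in tags and fold, with 62 tags and a fold of 4.32, which 97.4% of the list reached or passed. Its p score was much lower, at 57.53, near the cutoff of 50, and 80.8% of the list scored at least as high. Its FDR was 1.5%, against 0.3% for the peak at 120842241. Both were rich in tags and low in fold, and neither overlapped a streptavidin peak.

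The other 3 anti-FLAG peaks of Ctnnb1 were of ordinary size for the list, whose medians were 39 tags, a fold of 8.13 and a p score of 84.86. The peak at 120797405 had a fold of 6.46 and a p score of 64.57, that at 120805363 a fold of 7.39 and a score of 97.94, and that at 120890819 a fold of 6.58 and a score of 82.81. The streptavidin peak at 120805403 had a fold of 8.56, equal to its list's median, and a p score of 61.44, below its list's median of 80.79. The nearest streptavidin summit lay 7998 bp from the first anti-FLAG summit, 22906 bp from the third, 36838 bp from the fourth and 85416 bp from the fifth, far beyond the length of any of these peaks.

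Axin1 had the largest region that both captures called. The anti-FLAG peak (26246927 to 26248572) held 89 tags and the streptavidin peak (26247976 to 26249469) held 68, the most of any member in each list. They overlapped over 597 bp, which is 36.3% of the anti-FLAG peak and 40.0% of the streptavidin peak. Their summits, at 26247661 and 26248288, lay 627 bp apart. Over all 9358 overlapping pairs of the 2 CHIR99021 lists the median distance was 43 bp, and 3.84% of pairs were at least 627 bp apart. The captures thus overlapped in this region with their highest points at different places. Its fold was 4.38 by anti-FLAG and 6.75 by streptavidin, and its p score was 97.49 by anti-FLAG and 63.64 by streptavidin.

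Each list also had 1 peak in the Axin1 window at a place where no other list had one. Anti-FLAG called 26349756 to 26350282 with 16 tags, a fold of 6.28 and a p score of 52.32, the lowest of the anti-FLAG members. Streptavidin called 26256659 to 26257737 with 32 tags, a fold of 5.38 and a p score of 62.11, its summit 9588 bp from the nearest anti-FLAG summit. DMSO called 26289044 to 26289112 with 6 tags, 31834 bp from the nearest CHIR99021 summit.

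Apc was the only window in which both CHIR99021 captures called peaks and none coincided. The anti-FLAG peak (34367962 to 34368486) held 16 tags, with a fold of 6.28 and a p score of 52.53. Of the anti-FLAG list, 97.0% of peaks had at least as many tags. The streptavidin peak (34490205 to 34491193) held 48 tags, with a fold of 5.16 and a p score of 71.21. The summits lay 122456 bp apart, and DMSO had no peak in the window. The nearest region of both CHIR99021 lists outside the window ended 36.8 kb before it (34291402 to 34293158), with 111 anti-FLAG and 128 streptavidin tags and 2 DMSO peaks.

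Gsk3b, the largest window, held 1 site called by both captures of CHIR99021-treated cells. The anti-FLAG peak (38259932 to 38260891) had 32 tags, a fold of 8.59 and a p score of 85.82. The streptavidin peak (38259782 to 38260458) had 20 tags, a fold of 9.52 and a p score of 81.44. The summits, at 38260100 and 38260132, lay 32 bp apart. These were the members with the highest fold in each CHIR99021 list, and the ones above both the median fold and the median p score of their list. DMSO called 2 peaks of 6 tags, with summits at 38065241 and 38243038. The second lay 17062 bp from the anti-FLAG summit, the closest approach of a DMSO peak to a CHIR99021 peak in the 4 windows.

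**Figure D1:**
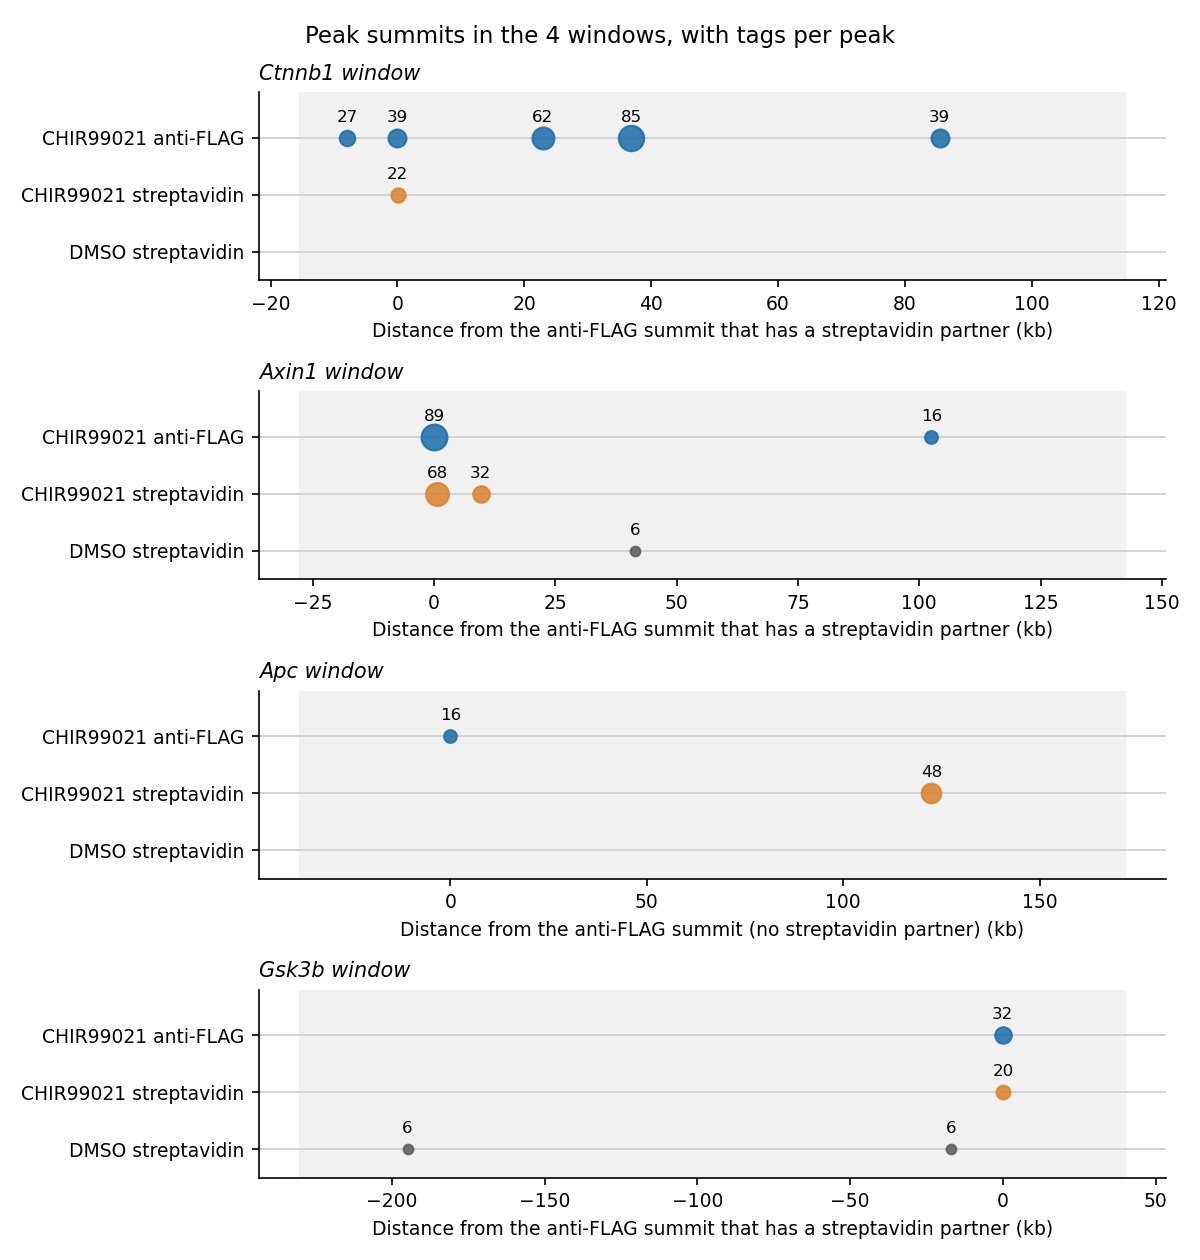
Summits of the 17 peaks in the 4 windows (grey), plotted by distance in kb from the anti-FLAG summit that has a streptavidin partner (for Apc, from its 1 anti-FLAG summit); the number over each point, which also sets its size, is the peak's tags. CHIR99021 anti-FLAG is the top row, CHIR99021 streptavidin the middle one and DMSO the bottom one: Ctnnb1 shows 5 anti-FLAG summits against 1 by streptavidin, peaks of both captures overlap once in each of Ctnnb1, Axin1 (summits 627 bp apart) and Gsk3b, and no DMSO peak overlaps either.

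Whether the captures through FLAG and through biotin found the same sites was asked next. Of the 9 anti-FLAG members, 3 shared at least 1 bp with a streptavidin peak (33.3%, 95% exact Clopper-Pearson interval 7.49 to 70.1%), against 57.6% of all anti-FLAG peaks. Over the 9587 anti-FLAG peaks whose p score lay within the range of the members it was 42.8%. Of the 5 streptavidin members, 3 shared bases with an anti-FLAG peak (60.0%, interval 14.7 to 94.7%), against 57.8% of all streptavidin peaks and 40.2% of the 3528 within the members' range of p scores. Each of these background shares lies within the members' interval, so at this number of peaks no departure from the rest of the lists was detectable. The intervals cover counting error only, and peaks of 1 window are not independent of each other.

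Merged into regions, the CHIR99021 peaks of the 4 windows gave 11 regions, of which 3 were held by both lists (27.3%, interval 6.02 to 61.0%). Over all 22658 CHIR99021 regions of the series it was 40.2%. Anti-FLAG without streptavidin held 6 of the 11 regions, 4 of them in Ctnnb1, against 30.1% over the series. Streptavidin without anti-FLAG held 2 of the 11, in Axin1 and Apc, against 29.7%. No interval was computed for either of these shares, and no departure from the series is claimed for them. With summits within 200 bp as the rule Axin1 no longer counted as shared, and with windows trimmed by 20 kb at each edge the shared Ctnnb1 site fell outside. The tag-rich, low-fold form of the 2 Ctnnb1 peaks at 120828309 and 120842241 was uncommon. Only 181 anti-FLAG peaks had at least 62 tags and a fold of at most 4.32, and 44.2% of these shared bases with a streptavidin peak. That limit was chosen after the peaks had been seen. The Axin1 anti-FLAG peak lay just outside it, with 89 tags and a fold of 4.38, which 97.0% of the list reached or passed. That Axin1 peak overlapped a streptavidin peak, so the form was neither limited to Ctnnb1 nor always without a partner.

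At the 3 shared regions the tags of each capture's own peak were compared. The 2 peaks of a region did not cover all the same bases. At Axin1 the shared bases were 36.3% of the anti-FLAG peak and 40.0% of the streptavidin peak. Scaled to tags per 1000000 unique tags, Ctnnb1 had 2.42 by anti-FLAG and 1.84 by streptavidin. Axin1 had 5.53 by anti-FLAG and 5.70 by streptavidin, and Gsk3b had 1.99 by anti-FLAG and 1.68 by streptavidin. The log2 ratio of anti-FLAG over streptavidin was 0.39 for Ctnnb1 (95% exact binomial interval −0.40 to 1.22), −0.04 for Axin1 (−0.52 to 0.43) and 0.25 for Gsk3b (−0.60 to 1.13). All 3 intervals include 0, so with this scaling no difference between the captures was detectable at these tag counts. In unscaled tags, which carry the greater depth of the anti-FLAG library, the Ctnnb1 ratio was 0.83 with an interval of 0.04 to 1.65. Over all 9113 regions of both lists the median was −0.19, and the middle 90% ran from −0.89 to 0.55. Ctnnb1 was at or above 91.1% of them, Gsk3b 85.5% and Axin1 64.3%, and the median of all regions also lay within each interval.

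**Figure D2:**
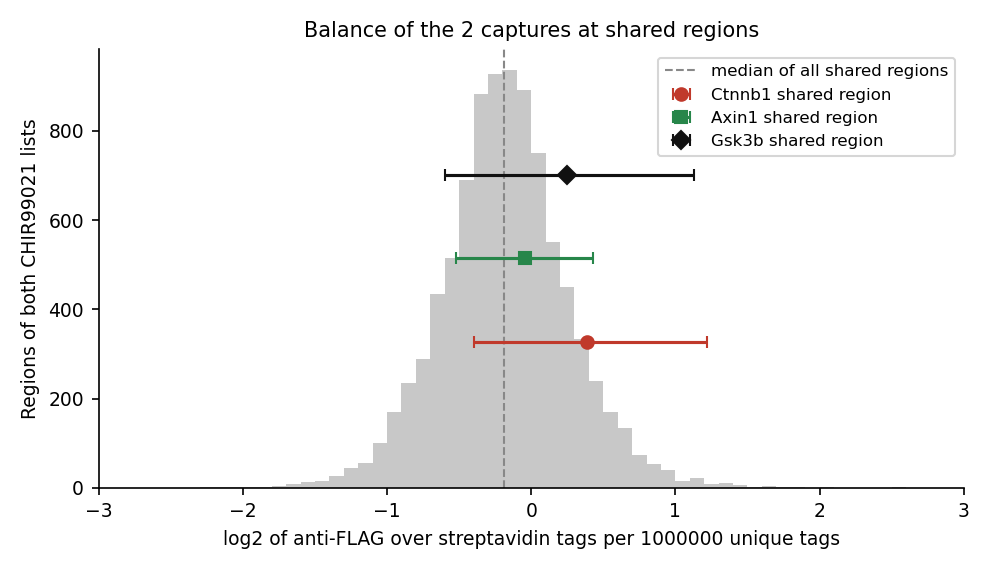
Histogram (bins of 0.1) of the log2 ratio of anti-FLAG over streptavidin tags per 1000000 unique tags for the 9113 regions of both CHIR99021 lists, with their median of −0.19 dashed. The points are the shared regions of Gsk3b (0.25), Axin1 (−0.04) and Ctnnb1 (0.39), placed at arbitrary heights, with bars for 95% exact intervals from the tag counts; every bar crosses both 0 and the median.

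The median fold of the CHIR99021 members was below that of their lists. Anti-FLAG members ranged from 16 to 89 tags with a median of 39, the same as the list median. Their folds ranged from 3.79 to 8.59 with a median of 6.28, against a list median of 8.13, and 1 of the 9 exceeded it. Their p scores had a median of 82.81, against 84.86. Streptavidin members ranged from 20 to 68 tags with a median of 32, against 34. Their folds ranged from 5.16 to 9.52 with a median of 6.75, against 8.56, and 1 of the 5 exceeded it. Their p scores had a median of 63.64, against 80.79. A fold of 10 was reached by 0 of the 9 anti-FLAG members, against 32.9% of the anti-FLAG list, and by 0 of the 5 streptavidin members, against 35.8% of the streptavidin list. A p score of 100 was reached by 1 of the 9 anti-FLAG members, at Ctnnb1, against 42.2% of the list, and by 0 of the 5 streptavidin members, against 38.9%. No interval was computed for these counts, and 5 of the 9 anti-FLAG members came from the Ctnnb1 window. Whether the members differ from their lists was not tested. The 3 DMSO members had a median fold of 29.27, against 25.81 in the DMSO list, and 2 of the 3 exceeded it.

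**Figure D3:**
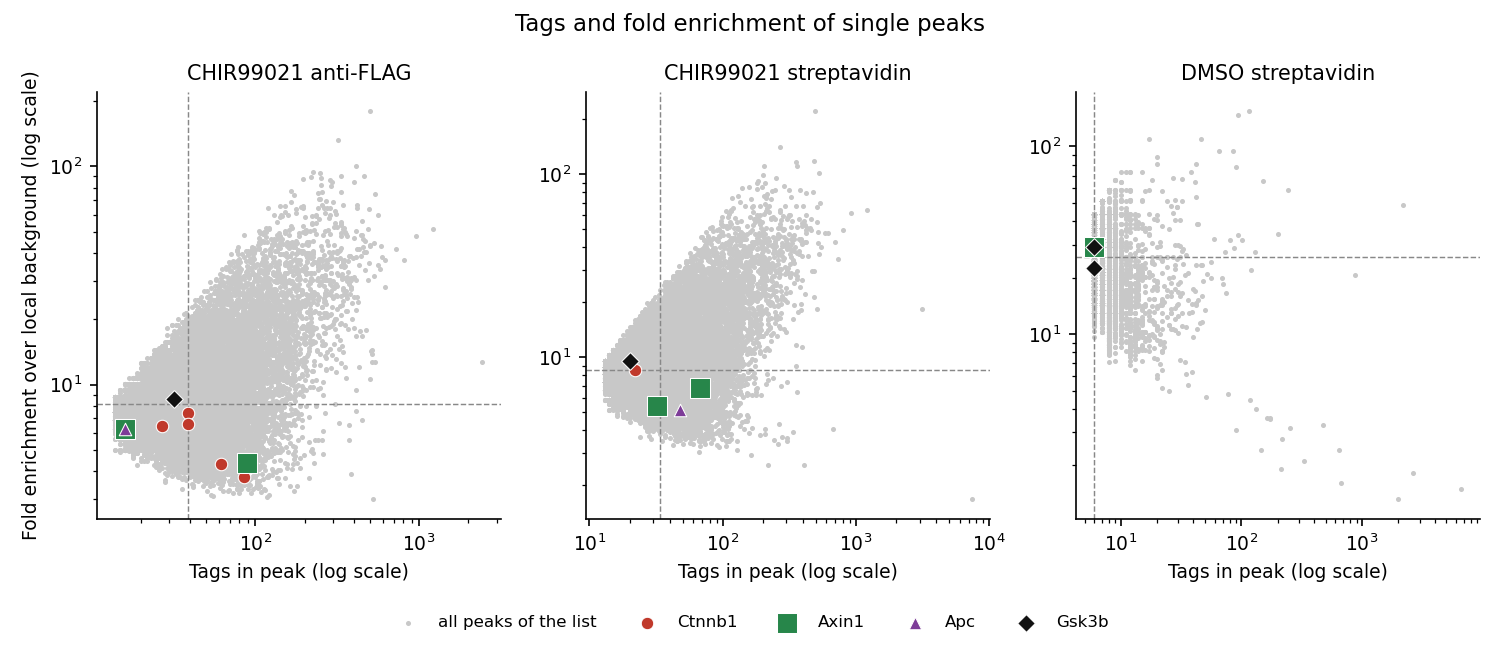
Tags in the peak (x, log scale) against fold enrichment over local background (y, log scale) for every peak of each list (grey) and the members (coloured by window), with list medians dashed; larger squares for Axin1 let coinciding points be seen. Apart from Gsk3b at 8.59 and 9.52 and Ctnnb1 by streptavidin at 8.56, which lies on the line, the CHIR99021 members fall below the median fold, while the 3 DMSO members all stand at 6 tags.

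CHIR99021 was set against DMSO for the streptavidin capture, with anti-FLAG beside it. At Ctnnb1 there were 22 tags in a peak by CHIR99021 streptavidin and 252 by CHIR99021 anti-FLAG, and no DMSO peak. At Axin1 there were 100 by CHIR99021 streptavidin and 105 by CHIR99021 anti-FLAG, against 6 for DMSO. At Apc there were 48 by CHIR99021 streptavidin and 16 by CHIR99021 anti-FLAG, and no DMSO peak. At Gsk3b there were 20 by CHIR99021 streptavidin and 32 by CHIR99021 anti-FLAG, against 12 for DMSO. These are sums over all called peaks of a window, which need not lie at the same place. No DMSO peak in the 4 windows overlapped a CHIR99021 peak, and the Apc peaks of the captures lay 122456 bp apart. The libraries were also called with different shifts, so no fold is given.

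None of the 11 CHIR99021 regions held a DMSO peak, against 6.64% of all 22658 CHIR99021 regions, and a count of 0 of 11 allows a share of up to 27.3%. None of the 3 regions of both CHIR99021 lists held one, against 12.9% over the series. None of the 3 DMSO members lay in a CHIR99021 peak. All 3 had exactly 6 tags, the smallest count in the DMSO list and that of 71.3% of its peaks, of which 7.06% lay in a CHIR99021 peak. Their lengths were 69, 74 and 85 bp and their folds 29.27, 29.27 and 22.44, close to the list medians of 74 bp and 25.81. The series-wide share lies below the limit that 0 of 11 allows, so no departure from it was detectable, and a missing call gives no limit on occupancy in DMSO.

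Anti-FLAG peaks were densest in the Ctnnb1 window of the 4. There were 38.5 anti-FLAG peaks per Mb in the Ctnnb1 window (95% exact Poisson interval 12.5 to 89.8), against a mean of 6.08 over 13189 bins of 200 kb, and 0.614% of those bins were at least as dense. A short window reaches a high density with fewer peaks. With bins of the window's own length, 130 kb, 1.45% of 20298 held at least 5 anti-FLAG peaks. By streptavidin the same window had 1 peak, or 7.69 peaks per Mb (interval 0.195 to 42.9), against a mean of 6.04. Of the 200 kb bins 31.2% were at least as dense, and 44.8% of the 130 kb bins held at least 1 streptavidin peak. The intervals of the 2 captures overlap. They cover counting error only and treat peaks as independent, which peaks of 1 window are not, so they can be too narrow. Of the 295 bins of 130 kb with at least 5 anti-FLAG peaks, 7 (2.37%) had at most 1 streptavidin peak, and the median of the 295 was 5 streptavidin peaks. That count was chosen after the window had been seen.

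In the other windows the mean of the bins lay within the counting interval of the CHIR99021 lists. Axin1 had 11.8 peaks per Mb in each CHIR99021 list (interval 1.42 to 42.5) and Apc had 4.76 (0.121 to 26.5). Gsk3b had 3.70 (0.0938 to 20.6). In DMSO, Gsk3b had 7.41 peaks per Mb (interval 0.897 to 26.8) and Axin1 5.88 (0.149 to 32.8). The mean of the DMSO bins, 4.81, lay within both intervals.

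**Figure D4:**
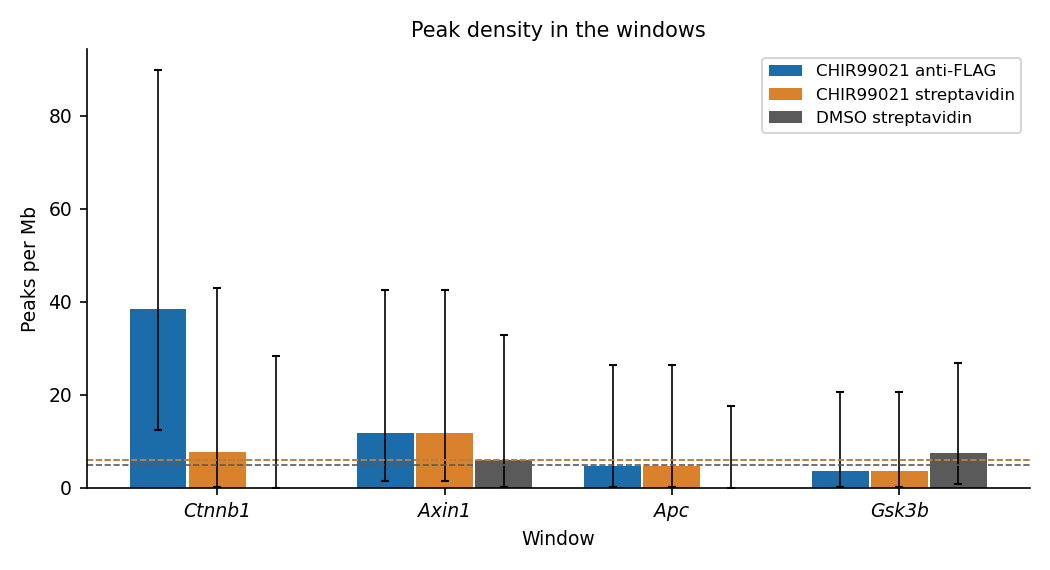
Peaks per Mb in each window for CHIR99021 anti-FLAG, CHIR99021 streptavidin and DMSO, left to right, with 95% exact Poisson intervals for the count and dashed lines at the mean over bins of 200 kb (6.08, 6.04 and 4.81). The Ctnnb1 anti-FLAG bar at 38.5, with its interval from 12.5, is the one whose interval lies above the mean. The intervals treat peaks as independent and can be too narrow, and 1.45% of bins of 130 kb held at least 5 anti-FLAG peaks.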

How the data were processed

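Members, windows and comparisons were chosen with earlier results of these data known. The authors ran MACS on ELAND-format files, each ChIP with 1 input as control, at a p-value cutoff of 1.00e-05, per the file headers. Both CHIR99021 lists had the same input as control, with 17758366 unique tags. The aligner and the MACS version are not given in the sources used here. Coordinates are mm9, as the submitters' processing notes state. The deposited tables give per peak a tag count (whole tags), a score (10 times −log10 of the p-value), a fold ratio over local background and an FDR in percent, per the file headers. The score and fold ratio are the authors' values for single peaks and were compared only within a list. Intervals of the deposited DMSO interval file are 400 bp windows and were used as an alternative.

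A member was a peak with start plus summit minus 1 inside a window. Peaks sharing at least 1 bp were taken as shared, and peaks that overlapped or abutted were joined into regions across the 3 lists. Since a group was 1 library, samples were not tested against each other. Intervals are 95% exact, and a count of 0 in the overlap with DMSO was given a limit of 3 counts. Genes were named by rule: the 4 members, and their coding neighbours in RefSeq, which for Gsk3b are not reported here. The code for overlaps, tested on simulated data, recovered 800 of 800 planted shared peaks. Alternatives changed thresholds, overlap rule, window edges, scaling and bins. Tools were scipy 1.17.1, pandas 2.3.3, matplotlib 3.10.9 and numpy 2.4.6, run in Python 3.11.15.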

Additional observations from a re-analysis of the deposited data

How the results depend on the processing

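Member counts depended on the peak threshold. Of 9 anti-FLAG, 5 CHIR99021 streptavidin and 3 DMSO members, 5, 1 and 0 passed an FDR of at most 1%, which 64.8%, 55.4% and 0.110% of the lists passed, in that order. A minimum fold of 10 kept 0, 0 and 3 members and 32.9%, 35.8% and 98.5% of the lists. A minimum p score of 100 kept 1, 0 and 0 members and 42.2%, 38.9% and 3.61% of the lists. Of the 3 regions of both CHIR99021 lists, 1 (Gsk3b) remained at an FDR of at most 1% and 0 at either other threshold. Summits within 200 bp or 50% reciprocal overlap each left 2, without Axin1. No CHIR99021 member gained a DMSO peak with summits within 200 or 1000 bp or with the 400 bp DMSO windows. Windows trimmed by 20 kb at each edge left 7, 4 and 3 members and removed the Ctnnb1 site of both captures, so Ctnnb1 streptavidin density fell to 0, against 7.69 per Mb in the full window; anti-FLAG density was 33.3. The log2 ratio of anti-FLAG over streptavidin, scaled to unique tags, was 0.39 at Ctnnb1, −0.04 at Axin1 and 0.25 at Gsk3b. It was 0.83, 0.39 and 0.68 with raw tags and 0.62, 0.18 and 0.47 scaled to tags in peaks. Of these, raw tags at Ctnnb1 gave the only interval without 0 (0.04 to 1.65). Raw tags carry the greater depth of the anti-FLAG library, so 0 is not an even balance for them. The share of bins at least as dense as Ctnnb1 under anti-FLAG, 0.614%, was 2.02% with bins of 100 kb, 0.806% on chromosome 9 alone and 1.45% with bins of 130 kb, the last added after seeing the data. No paired analysis was possible because no group held more than 1 library. Low tag counts (6 per DMSO member) and the unknown DMSO depth limit what a missing call can show.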
